A study of Homo sapiens with 4 samples.

Results

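The 39 genes described here carry the cell's responses to unfolded protein and to ATF4. They were taken by symbol from the protein-coding rows of a table of 58735 genes, and all 39 were found and passed the filter on low counts. They fall by role into 6 transcription factors and stress sensors, 15 genes of the ATF4 arm, and 18 genes of the endoplasmic reticulum (ER) chaperone and ER-associated degradation (ERAD) arm. The cells were HCC1954, a long-established line of human breast carcinoma in which the ERBB2 gene is amplified. Cells with a scrambled control hairpin (shCON) were compared with cells that carried a hairpin against ZDHHC15 (shZDHHC15), a palmitoyl acyltransferase, in 2 samples per group. Both groups received a GIPZ vector, grew in the same medium and were otherwise untreated. One label speaks of a stable knockdown and another of a transient plasmid transfection. No label says whether the samples of a group are separate cultures or carry different hairpins. The p-values thus measure only the spread between these samples, estimated for each gene with the help of the other genes.

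Protein that fails to fold in the ER is sensed by the membrane proteins IRE1 (ERN1), ATF6 and PERK (EIF2AK3). IRE1 splices XBP1 mRNA, and spliced XBP1 together with cleaved ATF6 induces chaperones, folding enzymes and the ERAD machinery that carries misfolded protein back to the cytosol. PERK instead phosphorylates the translation factor eIF2, as do GCN2, PKR and HRI under other stresses, and the resulting translation of ATF4 induces genes of amino acid supply, redox balance and cell death. Gene counts do not show splicing of XBP1, cleavage of ATF6 or phosphorylation of eIF2.

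The libraries held between 17560982 and 19118704 counts on genes, so that the floor of 3 counts lay between 0.153 and 0.178 CPM, counts per 1000000 counts of a library. ZDHHC15 had 17617 and 15716 counts in the shCON samples and 0 in both shZDHHC15 samples, each of which allows up to 3 counts by counting error alone. A hairpin usually leaves a part of its target mRNA, and what set these counts to 0 was not tested. The cells carried the epithelial and HER2 markers of HCC1954. Summed over 9 genes, these lay at 21779 and 23972 CPM in shCON and 11302 and 12113 CPM in shZDHHC15. Most of this fall lay in KRT8 and KRT17, with log2 fold changes of -1.62 and -1.58. KRT18, KRT5 and EPCAM were lower too, with log2 fold changes of -1.58, -0.64 and -0.35. KRT14, called lower as well, went from 5.32 and 6.11 CPM in shCON to 2.47 and 3.21 CPM in shZDHHC15. ERBB2 fell by less (-0.24), CDH1 was not called (-0.05) and KRT19 was higher (0.44). PGR, expected to be low in HCC1954, had at most 1 count. ESR1, expected to be low too, rose from 8.83 and 6.11 CPM to 16.5 and 15.5 CPM. Of 12 leukocyte markers, 10 had at most 10 counts in every sample and 5 were at 0 throughout. Their summed level was between 2.19 and 3.12 CPM. The 11 fibroblast and endothelial markers summed to 62.9 and 64.4 CPM in shCON and 119 and 109.8 CPM in shZDHHC15. CDH5 was the largest part of each sum, with 44.3 and 46.2 CPM in shCON and 65.7 and 75.8 CPM in shZDHHC15. PECAM1 rose from 4.11 and 3.32 CPM to 35.8 and 20.6 CPM (log2 fold change 2.91, SE 0.26, edgeR adjusted p = 5.43e-07). Of the 11 markers, 7 had at most 10 counts in every sample. COL1A1 rose from 5.49 and 7.11 CPM to 11.5 and 8.2 CPM, and KDR fell from 8.72 and 7.17 CPM to 5.8 and 4.43 CPM. Mitochondrial genes took 2.07% to 2.18% of the counts in shCON and 2.58% to 2.63% in shZDHHC15. The summed marker levels and the mitochondrial share thus moved with the group, and their part in the results that follow was not tested. In bulk RNA, a change in the share of cells that express a gene and a change of its RNA per cell cannot be told apart.

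Of 15817 genes tested with edgeR's quasi-likelihood test, 21.7% were higher and 20.3% lower in shZDHHC15 at an adjusted p under 0.05, so a call by itself was common in this comparison. Of the 39 members, 20 were higher, 9 were lower and 10 were not called. The direction divided by arm. In the ER chaperone and ERAD arm 16 of 18 genes were higher and 1 was lower, with a median log2 fold change of 0.54 against 0.02 over all genes tested. In the ATF4 arm 7 of 15 genes were lower and 2 were higher, with a median of -0.25. Of the 6 factors and sensors, 2 were higher and 1, ATF4 itself, was lower.

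**Figure D1:**
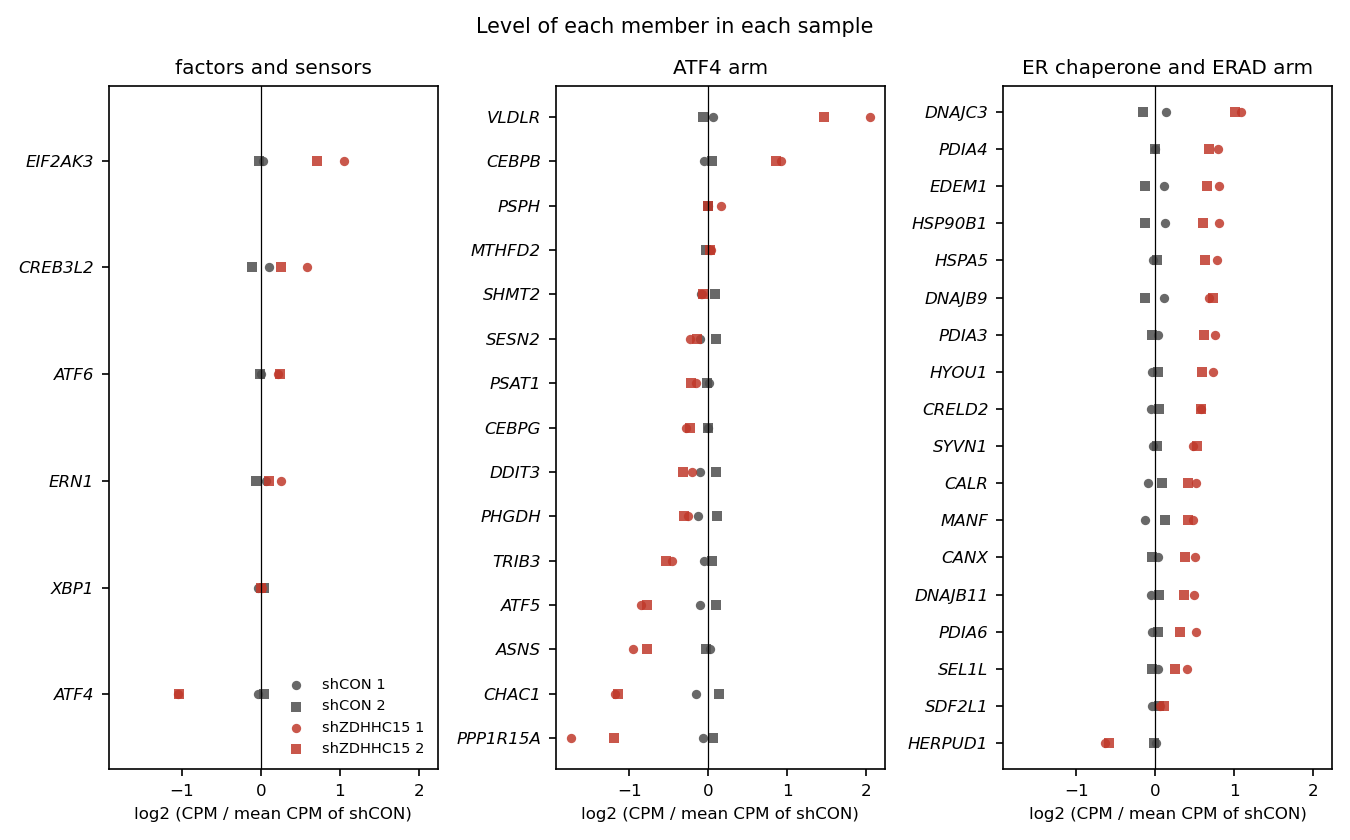
Each row is a member gene and each point a sample, placed at the log2 ratio of its CPM to the mean CPM of the 2 shCON samples (grey, shCON; red, shZDHHC15; circles, sample 1; squares, sample 2). In the right panel the shZDHHC15 points of 17 of 18 ER arm genes lie above both shCON points and those of HERPUD1 below. In the middle panel the shZDHHC15 points of 10 of 15 ATF4 arm genes lie below both shCON points. Over all genes tested, 37.2% lay above and 35.3% below by this measure.

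The promoters of several members hold short sequences known as response elements. RefSeq promoter windows on GRCh38.p14, from 250 bases before to 50 bases after the start of transcription, were found for 36 of the 39 members and not for PDIA3, PSPH and SHMT2. Searched on both strands were the ER stress response element ERSE (CCAAT, 9 bases of any kind, CCACG), which ATF6 binds together with NF-Y, ERSE-II (ATTGG, 1 base, CCACG), the XBP1 and ATF6 element UPRE (TGACGTGG), and the C/EBP-ATF response element CARE (TGATGNAA), which ATF4 dimers bind. Windows are printed below in the direction of the gene for the 2 ER chaperones HSPA5 and HSP90B1, for HERPUD1, which moved against the rest of its arm, for XBP1 and for the ATF4 target CHAC1. Capitals mark the matched element, ERSE in HSPA5, HSP90B1 and XBP1, CARE and then ERSE-II in HERPUD1, and CARE in CHAC1, on either strand.
HSPA5, chr9:125241294-125241593, minus strand: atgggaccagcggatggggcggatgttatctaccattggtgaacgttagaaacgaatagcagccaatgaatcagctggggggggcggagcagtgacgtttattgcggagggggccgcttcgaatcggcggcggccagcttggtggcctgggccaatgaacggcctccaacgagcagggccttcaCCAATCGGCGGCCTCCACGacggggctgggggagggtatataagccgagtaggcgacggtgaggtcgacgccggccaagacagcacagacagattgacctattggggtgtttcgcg
HSP90B1, chr12:103930160-103930459, plus strand: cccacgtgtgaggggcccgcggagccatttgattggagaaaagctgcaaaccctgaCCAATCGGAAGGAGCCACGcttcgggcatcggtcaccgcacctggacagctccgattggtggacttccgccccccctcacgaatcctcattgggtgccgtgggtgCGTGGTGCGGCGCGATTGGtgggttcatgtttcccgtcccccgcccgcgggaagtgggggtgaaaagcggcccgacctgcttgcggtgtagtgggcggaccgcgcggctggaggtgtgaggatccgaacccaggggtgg
HERPUD1, chr16:56931892-56932191, plus strand: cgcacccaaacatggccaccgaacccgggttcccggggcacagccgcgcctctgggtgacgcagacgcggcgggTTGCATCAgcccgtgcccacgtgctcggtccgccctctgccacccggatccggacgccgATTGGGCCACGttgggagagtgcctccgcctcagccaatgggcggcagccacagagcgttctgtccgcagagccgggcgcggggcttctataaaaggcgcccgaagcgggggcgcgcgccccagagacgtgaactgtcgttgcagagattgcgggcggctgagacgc
XBP1, chr22:28800520-28800819, minus strand: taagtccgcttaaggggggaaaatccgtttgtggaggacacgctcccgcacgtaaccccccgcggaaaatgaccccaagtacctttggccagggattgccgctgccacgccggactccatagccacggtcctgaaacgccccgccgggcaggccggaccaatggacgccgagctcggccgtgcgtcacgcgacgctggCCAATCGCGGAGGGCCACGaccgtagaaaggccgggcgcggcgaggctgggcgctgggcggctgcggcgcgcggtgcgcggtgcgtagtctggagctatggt
CHAC1, chr15:40953221-40953520, plus strand: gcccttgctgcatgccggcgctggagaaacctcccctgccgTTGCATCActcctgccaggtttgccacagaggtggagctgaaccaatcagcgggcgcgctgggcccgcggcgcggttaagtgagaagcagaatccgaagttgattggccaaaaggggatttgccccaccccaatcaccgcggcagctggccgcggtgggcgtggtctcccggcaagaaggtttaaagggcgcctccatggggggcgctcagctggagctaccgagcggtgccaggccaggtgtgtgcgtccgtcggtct

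ERSE was present in 0.0769% of all 35116 windows and in 0.0916% of the 27305 genes with a window. Of the 17 ER arm genes with a window, 6 held it, namely HSPA5, HSP90B1, CALR, CANX, PDIA6 and CRELD2. In HSPA5 it lay from -66 to -48 relative to the start of transcription, in XBP1 from -52 to -34, and HSP90B1 held it at -194 to -176 and again, on the other strand, at -89 to -71. None of the 13 ATF4 arm genes with a window held ERSE. ERSE-II was found in 0.0541% of the windows and 0.0696% of the genes, and in HERPUD1, HYOU1 and SDF2L1 among the members. In HYOU1 a UPRE match (0.729% of windows, 0.927% of genes) from -188 to -181 overlapped 1 of its ERSE-II matches. CARE, a shorter element found in 3.62% of the windows and 4.46% of the genes, was present in CHAC1, ASNS and CEBPG of the ATF4 arm. It was also present in HERPUD1 and CREB3L2. HERPUD1 was the single member with both ERSE-II, at -117 to -107, and CARE, at -176 to -169. A match is a string of letters in this window and no measurement of binding.

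The sensors and factors of the 3 branches did not move together. ATF4 (ENSG00000128272, chr22:39519695-39522685, plus strand), the factor translated when eIF2 is phosphorylated, had 625 and 661 CPM in the shCON samples and 309.8 and 313 CPM in the shZDHHC15 samples. Both shZDHHC15 samples were thus well below both shCON samples (log2 fold change -1.05, SE 0.09, edgeR adjusted p = 2.93e-07). The PERK gene EIF2AK3 (ENSG00000172071, chr2:88556741-88627576, minus strand) was low in abundance, with 9.87 and 9.54 CPM in shCON and 20.2 and 15.9 CPM in shZDHHC15. It was higher in both shZDHHC15 samples (log2 fold change 0.89, SE 0.16, edgeR adjusted p = 5.12e-04). Hence the mRNA of the kinase rose while the mRNA of the factor downstream of its substrate fell.

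XBP1 (ENSG00000100219, chr22:28794555-28800597, minus strand) had 200.2 and 211 CPM in shCON and 208 and 206 CPM in shZDHHC15. The groups overlapped, and the log2 fold change of 0.01 had a 95% interval of -0.18 to 0.20 (edgeR adjusted p = 0.951). Its sign was negative under 4 other choices of scaling, test or filter, but a change of more than 0.20 in either direction lay outside this interval. ATF6 (ENSG00000118217, chr1:161766294-161964070, plus strand) had 50.6 and 50.3 CPM in shCON and 58.7 and 59.7 CPM in shZDHHC15. Its samples did not overlap between groups, but the difference of 0.23 missed the threshold (SE 0.10, edgeR adjusted p = 0.0854). With library size as the sole scaling it was called, at 0.30 (edgeR adjusted p = 0.0288). Its transcripts share near-identical stretches with 31 other genes. The IRE1 gene ERN1 had 30.7 and 27.98 CPM in shCON and 35.02 and 31.4 CPM in shZDHHC15, where the interval of the log2 fold change (0.18) was -0.08 to 0.44 (edgeR adjusted p = 0.258). CREB3L2, an ATF6-like factor held in the ER membrane, was higher by a log2 fold change of 0.43 (SE 0.13, edgeR adjusted p = 0.0136), with 51.9 and 44.6 CPM in shCON and 72.6 and 57.4 CPM in shZDHHC15. Its call was lost without shZDHHC15 sample 1, where the log2 fold change was 0.25 (edgeR adjusted p = 0.245).

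Among the other transcription factors of the ATF4 arm, those of the C/EBP family differed in direction. ATF5, a close relative of ATF4, had 45.5 and 52.3 CPM in shCON and 27.1 and 28.6 CPM in shZDHHC15 and fell in both samples (log2 fold change -0.81, SE 0.12, edgeR adjusted p = 7.31e-05). Its exons overlap NUP62 on the opposite strand, which had 10216 counts over the 4 samples against 2779 for ATF5. CEBPB (ENSG00000172216, chr20:50190734-50192689, plus strand), a dimer partner of ATF4, moved the other way, from 492 and 529 CPM to 968 and 925 CPM (log2 fold change 0.89, SE 0.09, edgeR adjusted p = 1.66e-06). CEBPG, another dimer partner of ATF4, had 92.5 and 92.9 CPM in shCON and 76.6 and 79.3 CPM in shZDHHC15 and passed the threshold narrowly at -0.25, adjusted p = 0.0490 with edgeR. DDIT3, the proapoptotic factor CHOP and a widely used marker of this pathway, was at a low level of 8.78 and 10.1 CPM in shCON and 8.16 and 7.54 CPM in shZDHHC15. Both shZDHHC15 values lay below both shCON values, but the log2 fold change of -0.26 had an interval of -0.64 to 0.11 and was not called (edgeR adjusted p = 0.250). DDIT3 had 630 counts in all and overlaps exons of MARS, with 13279 counts on the opposite strand, and whether counting used the strand is not given in the sources used here.

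The feedback and effector genes of the ATF4 arm held its largest decreases. PPP1R15A (ENSG00000087074, chr19:48872392-48876057, plus strand), which encodes the GADD34 subunit that directs a phosphatase to eIF2, had 604 and 664 CPM in shCON and 189.8 and 277 CPM in shZDHHC15. It fell the most of all 39 members (log2 fold change -1.44, SE 0.14, edgeR adjusted p = 1.10e-06), with a wider gap within shZDHHC15 than within shCON. CHAC1 (ENSG00000128965, chr15:40952962-40956519, plus strand), an enzyme that degrades glutathione and whose promoter is printed above, went from 49.97 and 61.2 CPM to 24.6 and 25.1 CPM. The 2 shZDHHC15 samples were nearly equal and at less than 0.5 times the shCON mean (log2 fold change -1.16, SE 0.12, edgeR adjusted p = 4.22e-06). TRIB3, a pseudokinase that binds and represses ATF4, had 134 and 143 CPM in shCON and 101 and 95.8 CPM in shZDHHC15 and fell by a smaller amount (log2 fold change -0.49, SE 0.10, edgeR adjusted p = 8.50e-04). SESN2, a leucine sensor upstream of mTORC1, was at 46.5 and 53.5 CPM and 42.7 and 45.3 CPM and was not called (log2 fold change -0.18, edgeR adjusted p = 0.215).

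**Figure D2:**
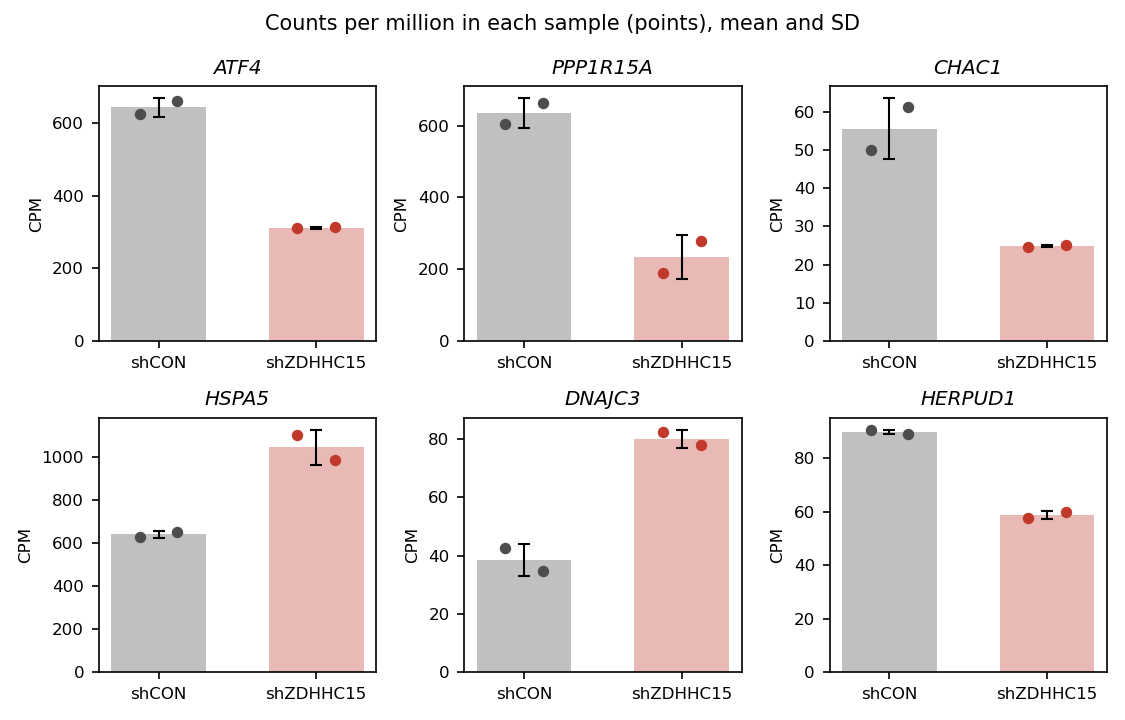
Each panel gives the CPM of 1 gene in shCON (grey) and shZDHHC15 (red), with points for the 2 samples of a group, bars for their mean and error bars for the SD. ATF4, PPP1R15A, CHAC1 and HERPUD1 were lower in both shZDHHC15 samples, and HSPA5 and DNAJC3 were higher in both.

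Of the 6 amino acid and one-carbon enzymes of the arm, 2 were lower and 4 were not called. ASNS (ENSG00000070669, chr7:97852118-97872542, minus strand), asparagine synthetase and the classical ATF4 target, was barely expressed, with 50 and 45 counts in shCON and 26 and 31 counts in shZDHHC15. These counts correspond to 2.74 and 2.67 CPM against 1.40 and 1.58 CPM, and the decrease passed the threshold (log2 fold change -0.86, SE 0.30, edgeR adjusted p = 0.0338). The ASNS call was lost when any 1 of the 4 samples was left out, with log2 fold changes between -0.96 and -0.78. In the serine pathway, PHGDH, which catalyses the first step, had 167 and 198 CPM in shCON and 153 and 149 CPM in shZDHHC15 and passed narrowly (log2 fold change -0.28, SE 0.10, edgeR adjusted p = 0.0371), while PSAT1, the second enzyme, was at 218 and 213 CPM and 194 and 186 CPM and missed the threshold (-0.18, adjusted p = 0.114 with edgeR). PSPH, the last enzyme of serine synthesis, and the mitochondrial one-carbon enzymes SHMT2 and MTHFD2 had samples that overlapped between the groups. Their log2 fold changes were 0.08, -0.07 and 0.03, with 95% intervals of -0.15 to 0.32, -0.27 to 0.14 and -0.16 to 0.22. PSPH had 40.5 and 40.3 CPM in shCON and 45.1 and 40.5 CPM in shZDHHC15, and SHMT2 139 and 157 CPM and 141 and 142 CPM. MTHFD2 had 229 and 220.1 CPM in shCON and 231 and 227 CPM in shZDHHC15.

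VLDLR (ENSG00000147852, chr9:2621834-2660053, plus strand), a lipoprotein receptor induced by ATF4 under ER stress, showed the largest increase of all 39 members. It had 25.5 and 23.3 CPM in shCON and 101 and 67.7 CPM in shZDHHC15, so that both shZDHHC15 samples were above both shCON samples although they differed from each other (log2 fold change 1.79, SE 0.16, edgeR adjusted p = 6.47e-07). VLDLR and CEBPB were the 2 genes of the arm that rose. Their exons overlap the antisense genes VLDLR-AS1 and CEBPB-AS1, which had 96 and 51 counts over the 4 samples.

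Counting only genes whose 2 groups did not overlap, 10 of 15 ATF4 arm genes were lower and 2 were higher, where 35.3% of all genes tested were lower and 37.2% higher by this measure. The calls of 3 of the 7 lower genes, ASNS, PHGDH and CEBPG, were lost in fits that left out single samples. In those fits the log2 fold changes ran from -0.96 to -0.78 for ASNS, from -0.43 to -0.16 for PHGDH and from -0.28 to -0.23 for CEBPG. Such fits have 1 residual degree of freedom in place of 2, so a lost call alone does not show that a single sample carried the decrease. Leaving out shCON sample 2, shZDHHC15 sample 1 or shZDHHC15 sample 2 gave 4 lower genes each time, namely ATF5, PPP1R15A, TRIB3 and CHAC1, and leaving out shCON sample 1 gave 7, in which SESN2 (-0.31, edgeR adjusted p = 0.0352) stood in place of ASNS. With library size as the sole scaling the arm held 2 higher and 4 lower genes.

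The Hsp70 and Hsp90 chaperones of the ER were higher in shZDHHC15. HSPA5 (ENSG00000044574, chr9:125234853-125241330, minus strand), the Hsp70 chaperone BiP, had 631 and 652 CPM in shCON and 1105 and 989 CPM in shZDHHC15. Both shZDHHC15 samples exceeded both shCON samples (log2 fold change 0.71, SE 0.09, edgeR adjusted p = 1.97e-05). HSP90B1 (ENSG00000166598, chr12:103930107-103953645, plus strand), the Hsp90 paralog GRP94, showed nearly the same fold change, from 305 and 255 CPM to 490.2 and 425 CPM (log2 fold change 0.71, SE 0.11, edgeR adjusted p = 8.68e-05). HYOU1, a nucleotide exchange factor for BiP, rose from 137 and 144 CPM to 233 and 212 CPM (log2 fold change 0.66, SE 0.09, edgeR adjusted p = 6.20e-05).

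The J-domain co-chaperones of BiP rose as well. DNAJC3 (ENSG00000102580, chr13:95677139-95794989, plus strand), known as p58IPK and as an inhibitor of PERK and PKR, had 42.5 and 34.7 CPM in shCON and 82.2 and 77.7 CPM in shZDHHC15. This was the largest increase of the arm and close to a doubling (log2 fold change 1.05, SE 0.12, edgeR adjusted p = 5.84e-06). DNAJB9, the co-chaperone ERdj4 and a target of spliced XBP1, went from 23.8 and 20.1 CPM to 35.1 and 36.3 CPM (log2 fold change 0.70, SE 0.13, edgeR adjusted p = 4.46e-04), and its exons overlap those of PNPLA8 and THAP5 on the opposite strand. DNAJB11, ERdj3, rose less, from 101 and 109 CPM to 147 and 136 CPM (0.43, adjusted p = 0.00247 with edgeR).

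Both lectin chaperones that hold monoglucosylated glycoproteins were higher. CALR, calreticulin, had 494 and 557 CPM in shCON and 749 and 699 CPM in shZDHHC15 (log2 fold change 0.46, SE 0.09, edgeR adjusted p = 9.56e-04). CANX, its membrane-bound relative calnexin, had 472 and 447 CPM in shCON and 654 and 598 CPM in shZDHHC15 (log2 fold change 0.44, SE 0.09, edgeR adjusted p = 0.00102). All 3 protein disulfide isomerases were higher. PDIA4 rose from 243 and 243 CPM to 422 and 391 CPM (log2 fold change 0.74, SE 0.09, edgeR adjusted p = 1.22e-05), and PDIA3, the partner of the lectin chaperones, from 225 and 213 CPM to 370.5 and 336 CPM (log2 fold change 0.69, SE 0.09, edgeR adjusted p = 3.38e-05). PDIA6 had 187 and 197 CPM in shCON and 276 and 238 CPM in shZDHHC15 and rose by 0.42 (edgeR adjusted p = 0.00301), a call that was lost without shZDHHC15 sample 1, with a log2 fold change of 0.31. PDIA3 has a near-identical copy, PDIA3P1, whose counts came to 6.2% of those of PDIA3.

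Of the small secretory factors, 2 rose and 1 was not called. MANF, a secreted neurotrophic factor that binds BiP, had 64.1 and 76.5 CPM in shCON and 97.6 and 94.1 CPM in shZDHHC15 (log2 fold change 0.45, SE 0.11, edgeR adjusted p = 0.00380). CRELD2 had 51.7 and 55.5 CPM in shCON and 80.1 and 80.2 CPM in shZDHHC15 (log2 fold change 0.58, SE 0.10, edgeR adjusted p = 3.53e-04). SDF2L1, a component of the BiP chaperone complex, had 90.6 and 96.6 CPM and 97.96 and 101 CPM. Its groups did not overlap, but the log2 fold change of 0.09 was not called, with an interval of -0.12 to 0.30 (edgeR adjusted p = 0.484).

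Among the 4 ERAD genes, HERPUD1 moved against the others. EDEM1, a mannosidase-like lectin that directs misfolded glycoproteins to ERAD, rose from 47.8 and 40.4 CPM to 77.3 and 69.4 CPM (log2 fold change 0.73, SE 0.11, edgeR adjusted p = 1.41e-04). SYVN1, the ubiquitin ligase HRD1, rose from 92.4 and 95.5 CPM to 131 and 136 CPM (log2 fold change 0.50, SE 0.09, edgeR adjusted p = 6.06e-04), though its exons overlap FAU on the same strand and MRPL49 on the opposite strand, with 34201 and 15655 counts against 8396 for SYVN1. SEL1L, the membrane partner of HRD1, had 67.5 and 63.8 CPM in shCON and 86.4 and 77.8 CPM in shZDHHC15 and rose by a smaller amount (log2 fold change 0.32, SE 0.10, edgeR adjusted p = 0.0205). The SEL1L call was lost without shCON sample 2 or without shZDHHC15 sample 1, where the log2 fold changes were 0.27 and 0.24. HERPUD1 (ENSG00000051108, chr16:56932048-56944863, plus strand), which helps to assemble the HRD1 complex, had 90.5 and 89.3 CPM in shCON and 57.8 and 59.9 CPM in shZDHHC15. Both shZDHHC15 samples were below both shCON samples (log2 fold change -0.61, SE 0.10, edgeR adjusted p = 1.83e-04), and the log2 fold change stayed between -0.64 and -0.59 when single samples were left out.

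By the measure of groups that did not overlap, 17 of 18 ER arm genes were higher and 1 was lower. Over all genes tested the shares were 37.2% higher and 35.3% lower. Summed over the 18 genes, the arm amounted to 3366 and 3390 CPM in shCON and to 5192 and 4758 CPM in shZDHHC15. The ATF4 arm summed to 2295 and 2461 CPM in shCON and to 2304 and 2298 CPM in shZDHHC15, since the gain of CEBPB stood against the loss of PPP1R15A within that sum. Taken as the median of the arm's log2 ratios to the shCON mean (with 0.5 CPM added to each value), the ER arm lay at 0.55 in both shZDHHC15 samples and at -0.01 and 0.01 in the shCON samples. The ATF4 arm lay at -0.22 in both shZDHHC15 samples and at -0.05 and 0.05 in the shCON samples. The median log2 fold change of the ER arm was higher than that of the ATF4 arm by 0.79.

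Per kilobase of gene length, CEBPB, ATF4 and PPP1R15A were the most abundant members in shCON, with 261, 256 and 205 CPM per kilobase, ahead of CALR with 194 and HSPA5 with 164. In shZDHHC15, CEBPB was still the most abundant with 484 CPM per kilobase, and HSPA5 and CALR came next with 268 and 267, which did not differ beyond the spread of their samples. ATF4 had 124 CPM per kilobase there, on a par with PDIA4 at 124. ASNS was the least abundant member in both groups, at 0.607 and 0.334 CPM per kilobase.

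The log2 fold change over all genes rose with gene length, from a median of -0.18 in the shortest decile of genes and -0.22 in the next to 0.32 in the longest, and fell with the GC content of the transcripts, from 0.13 in the lowest decile to -0.12 in the highest. The trend predicted a median of -0.00 for the ER arm and of -0.10 for the ATF4 arm. With the trend removed, the ER arm held 16 higher genes and 1 lower gene with a median of 0.59, and the ATF4 arm held 2 higher and 7 lower genes with a median of -0.09. SEL1L and CREB3L2 were then no longer called, at 0.13 (edgeR adjusted p = 0.350) and 0.27 (edgeR adjusted p = 0.101). SDF2L1, one of the shortest members, was then called higher at 0.39 (edgeR adjusted p = 0.00523). CHAC1 stood at -0.92, ATF4 at -0.88 and PPP1R15A at -1.29 on this scale.

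Of the members that neither overlap another gene's exons nor share a near-identical stretch with one, 5 of 7 in the ER arm were higher (HSPA5, DNAJC3, PDIA4, MANF and SEL1L) and 1 was lower (HERPUD1). In the ATF4 arm 5 of 7 such genes were lower (PPP1R15A, TRIB3, CHAC1, PHGDH and CEBPG) and 0 were higher, where the 2 higher genes of the arm, VLDLR and CEBPB, had been left out for their antisense partners of 96 and 51 counts. Over all genes tested, 21.7% were higher and 20.3% were lower. Among these 7 genes the number higher was also 0 at an unadjusted p under 0.05 with edgeR and 0 by DESeq2. With both higher genes of the arm left out, the 0 called followed from the restriction. It says nothing about the direction of the whole arm. Counts of the ATF4 pseudogenes ATF4P3 and ATF4P4 came to 0.139% of those of ATF4, and those of PSPHP1 to 7.04% of those of PSPH. Of the overlaps not yet named, the largest were those of DDIT3 with MBD6, CRELD2 with ALG12 and DNAJB11 with TBCCD1, all on the opposite strand. These partner genes had 1849, 1626 and 1312 counts.

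The wider machinery was followed in 8 lists with 177 genes, of which 170 were tested, 29 were higher and 35 were lower. These counts lay near or under the shares of all genes called, 21.7% higher and 20.3% lower. The same shares apply to the counts of each list below. The list closest to the ER arm, with 30 further ER folding enzymes and co-chaperones tested, had 11 higher and 3 lower genes and a median log2 fold change of 0.21. LMAN1, a cargo receptor from the ER to the Golgi, had 6.97 and 5.93 CPM in shCON and 44.3 and 37.5 CPM in shZDHHC15, the largest increase of any listed gene (log2 fold change 2.66, SE 0.15, edgeR adjusted p = 5.64e-09). Both glucosyltransferases that test glycoprotein folding rose as well, UGGT1 by 0.79 and UGGT2 by 0.62, with edgeR adjusted p of 5.91e-05 and 0.00350. The peroxiredoxin PRDX4 and the prolyl isomerase FKBP2 fell, with log2 fold changes of -0.47 and -0.49, and DDRGK1, a factor of UFMylation at the ER, was lower at -0.37. FKBP2 and DDRGK1 were not called with the length and GC trend removed, and DDRGK1 also not without shZDHHC15 sample 1, at -0.35.

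Of 30 further ERAD genes, 4 were higher and 6 were lower, with a median of 0.06, beside 21.7% and 20.3% of all genes tested. These counts lay near or under those shares and give no direction to ERAD beyond the 4 members. HERPUD2, the paralog of HERPUD1, fell like it, from 32.1 and 33.97 CPM to 18.4 and 18.03 CPM (log2 fold change -0.86, SE 0.12, edgeR adjusted p = 6.42e-05), and the p97 adaptors UBXN8 and UBXN6 fell with log2 fold changes of -0.78 and -0.62. HERPUD2 exons overlap an antisense gene with 1294 counts. The membrane ubiquitin ligase gene MARCH6 and the adaptor UBXN4 rose by 0.55 and 0.53, and ERLIN1 by 0.41, though it was not called without shCON sample 2 (0.26) or shZDHHC15 sample 2 (0.35). UBXN6 and ERLIN1 overlap exons of CHAF1A and CHUK, with 5738 and 3305 counts. The 24 genes of the translocon and of signal peptide processing held 3 higher and 3 lower genes with a median of 0.07. Both counts lay under the 21.7% and 20.3% of all genes tested. The higher genes were SEC61A1 at 0.32, SRP54 at 0.43 and SEC62 at 0.33. The lower genes were SRP9 at -0.37, SPCS1 at -0.33 and SSR4 at -0.29. SEC61A1, SRP54, SEC62, SPCS1 and SSR4 were not called without shZDHHC15 sample 1, at 0.31, 0.37, 0.28, -0.36 and -0.29. SRP9 was not called without shZDHHC15 sample 2, at -0.34. Fits without 1 sample have 1 residual degree of freedom in place of 2. The lost calls alone therefore do not show whether single samples carried these changes.

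Upstream of ATF4, EIF2AK2 was the eIF2 kinase gene with the largest change. EIF2AK2, the double-stranded RNA sensor PKR and an interferon-stimulated gene, had 80.5 and 70.01 CPM in shCON and 328 and 273 CPM in shZDHHC15 (log2 fold change 2.00, SE 0.11, edgeR adjusted p = 4.05e-09). The genes for HRI (EIF2AK1) and GCN2 (EIF2AK4) were not called, with log2 fold changes of 0.12 and 0.10 and intervals of -0.08 to 0.32 and -0.13 to 0.33. Of the 14 genes of this list, which holds the other eIF2 kinases, phosphatase subunits and eIF2 complexes, EIF2AK2 alone was higher. Lower were 2 subunits of the exchange factor eIF2B, EIF2B2 at -0.53 and EIF2B4 at -0.52. Both counts lay under the shares of all genes tested, 21.7% higher and 20.3% lower.

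ATF3, a stress factor induced by ATF4, fell the most among 12 further ATF, CREB3 and C/EBP genes tested, from 177 and 181 CPM to 52.4 and 58.4 CPM (log2 fold change -1.69, SE 0.10, edgeR adjusted p = 7.10e-09). JDP2 and CREB3 fell too, with log2 fold changes of -0.83 and -0.54, and CEBPD rose by 0.73, so that CEBPB and CEBPD rose and CEBPG fell within the C/EBP family. CREB3 exons overlap those of TLN1, with 21262 counts on the opposite strand. The list had 1 higher and 4 lower genes of 12 tested, beside 21.7% higher and 20.3% lower over all genes tested.

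Further targets of ATF4 were divided, with 5 higher and 10 lower of 26 tested and a median of -0.05. Over all genes tested 21.7% were higher and 20.3% lower, so the lower genes of the list exceeded that share and the higher genes lay near it. CTH, the enzyme that makes cysteine from cystathionine, fell from 15.9 and 14.5 CPM to 5.69 and 4.38 CPM (log2 fold change -1.59, SE 0.18, edgeR adjusted p = 7.74e-06). Its counterpart in cysteine supply, the cystine transporter SLC7A11, rose from 12.1 and 7.23 CPM to 27.9 and 24.00 CPM (log2 fold change 1.41, SE 0.19, edgeR adjusted p = 3.41e-05), while SLC3A2, the heavy chain that carries SLC7A11 to the membrane, fell from 1407 and 1601 CPM to 777 and 850.1 CPM (log2 fold change -0.89, SE 0.09, edgeR adjusted p = 3.46e-06). PYCR1, of proline synthesis, was lower at -0.88. DDIT4, an inhibitor of mTORC1, and VEGFA rose by 1.03 and 0.59. The 20 cytosolic aminoacyl-tRNA synthetases, a group with many ATF4 targets, had 4 higher and 3 lower genes around a median of -0.00. These counts lay near or under the shares of all genes tested. WARS, which is also interferon-inducible, was the exception in size, with 136 and 130.0 CPM in shCON and 503 and 409 CPM in shZDHHC15 (log2 fold change 1.78, SE 0.11, edgeR adjusted p = 8.20e-09). The next in size was FARSA at -0.56, and VARS, CARS, IARS and EPRS lay between -0.37 and 0.35. These 4 were not called without shZDHHC15 sample 1, at -0.31, -0.30, 0.31 and 0.28.

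Mitochondrial chaperones and proteases, the corresponding machinery of the mitochondrial unfolded protein response, held 0 higher and 4 lower genes of 14 by edgeR. Over all genes tested 21.7% were higher and 20.3% lower. The median of the list was -0.12. HTRA2, CLPP and GRPEL1 were lower, with log2 fold changes of -0.77, -0.57 and -0.50. HTRA2 exons overlap those of AUP1, with 12836 counts on the opposite strand. At an unadjusted p under 0.05 edgeR gave 2 higher genes, and DESeq2 called 0 at an adjusted p under 0.05.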

How the data were processed

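RNA of 2 shCON and 2 shZDHHC15 samples of HCC1954 cells was sequenced by a commercial provider from total RNA on NEBNext Ultra libraries. The authors deposited raw counts of reads per gene, not normalized. The submitters' processing notes name HISAT2, StringTie, SAMtools and the build hg38. The counting program, its strand setting and the annotation are not given in the sources used here, and 58724 of 58735 genes had the same start, end and symbol in GENCODE 29 (GRCh38). All 4 count columns were used and 0 were left out.

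The counts were fitted with edgeR 4.0.16 (R 4.3.3) with TMM factors, filterByExpr (15817 genes kept), glmQLFit and glmQLFTest on the 4 samples without covariates, with Benjamini-Hochberg adjustment over all genes and a call at an adjusted p under 0.05. Intervals are 95%. CPM values use TMM-scaled library sizes. Samples of a group differed by more than counting noise (chi-square per degree of freedom of 8.32 for shCON and 6.79 for shZDHHC15) and were kept apart. With 2 samples against 2, a permutation of 1 value cannot give a two-sided p under 0.333.

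Members, their arms and the 8 related lists were chosen with earlier results of these data known, and counts over them stand against the shares of all genes called, 21.7% higher and 20.3% lower. All members are named, and from each related list up to 3 rises and 3 falls of the largest size, among genes that averaged 50 counts or more in their higher group, together with ATF3 and the eIF2 kinases. Exon overlaps and stretches shared over 150 bases or more at an identity of 97% or more were taken from GENCODE 29. Promoter windows are from RefSeq on GRCh38.p14. Other scalings, other filters, DESeq2 1.42.0, a replicate block and fits without single samples were run. Removal of a spline trend over gene length and GC content, centred to keep the median of all genes, and the restriction to members without overlap were added after seeing the data. The fit was tested on simulated data.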

Additional observations from a re-analysis of the deposited data

How the results depend on the processing

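Of the members' log2 fold changes, 328 of 351 values under alternatives that kept all samples had the same direction and the same side of the threshold as reported. The ATF4 arm held 4 lower genes with library size only and 4 without the filter on low counts, 5 with DESeq2, and between 4 and 7 without single samples, where a group of 1 sample is assumed to vary like the other group. The factors and sensors held 1 higher gene without the filter and 1 with the length and GC trend removed, 3 with library size only, where ATF6 was called (0.30), and 1 to 2 without single samples. In the ER arm 5 genes were higher among the 7 without overlap or copy, because fewer genes entered, and 14 to 16 were higher without single samples. The related lists together held 18 to 31 higher genes without single samples. The ER arm's median log2 fold change was 0.53 with DESeq2 size factors and with the DESeq2 Wald test, 0.62 with library size only, 0.51 with upper-quartile factors, 0.52 without the filter, 0.59 without the trend and 0.48 to 0.57 without single samples. The ATF4 arm's median was -0.18 with library size only, -0.095 without the trend and -0.31 to -0.17 without single samples. The difference of the medians was 0.69 without the trend and 0.745 to 0.787 without single samples.

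Near 0, XBP1 was at -0.0043 with DESeq2 size factors, -0.00437 with the DESeq2 Wald test, -0.023 with upper-quartile factors and -0.0092 without the filter, and from -0.060 to 0.036 without single samples. SHMT2 was at 0.0090 with library size only and from -0.18 to 0.011 without single samples, and MTHFD2 was at -0.00137 with upper-quartile factors, at -0.0048 without the trend and from -0.0098 to 0.035 without single samples. ERN1 (-0.0087) and EIF2AK4 (-0.13) turned negative without the trend. In none of these reversals was the gene called. The cause of these shifts was not tested. Over all genes, 5349 were called with DESeq2 and 6644 with edgeR.

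With the replicate number as a block, the ER arm had 16 higher genes and 1 lower gene and the ATF4 arm 2 higher and 7 lower genes, and over all genes 3723 were higher and 3502 lower. The samples share only a number, since same-numbered samples correlated at 0.0344 in their deviations from the group means. The lowest counts among the members were those of ASNS and DDIT3, with at most 50 and 170 in a sample.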

Other observations

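The ERSE element was looked up in all RefSeq promoter windows after the values of the members had been seen, so the counts are a description. It lay in windows of 25 genes, of which 16 were tested. Among these were 7 members already described, 6 higher genes of the ER arm and XBP1. Of the 9 other genes, 3 were higher and 1 was lower, beside 21.7% and 20.3% of all genes tested, with a median log2 fold change of -0.17. The higher genes were FICD (1.00), which attaches AMP to BiP, the ER oxidase ERO1B (0.60) and TRIM5 (1.61), an antiviral and interferon-inducible gene. TMEM120A was lower, at -0.48, and SERP1 (0.03), ALG12 (-0.17), EIF2A (-0.17), ZNF17 (-0.21) and SYNPO (-0.25) were not called. ERSE-II lay in windows of 19 genes, of which 14 were tested, 4 were higher and 3 were lower, HERPUD1 among the lower, around a median of 0.03. For the shorter CARE element, 78 genes were higher and 75 lower of 292 tested, around a median of 0.01.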
